A study of Saccharomyces cerevisiae with 12 samples.

Results

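The response of wild type budding yeast to methyl methanesulfonate (MMS) was taken from poly(A) RNA sequencing of 6 libraries, 3 of MMS-treated and 3 of untreated wild type cells, out of 12 libraries in the series. These libraries were chosen by their labels and not by any measured value. All 6463 genes that passed a filter on low counts were tested, of 7109 gene identifiers in the table. Treated cells (WT_MMS_1 to WT_MMS_3) were BY4741, a laboratory strain that mates as an a cell and lacks working copies of HIS3, LEU2, MET17 and URA3, after 90 min in MMS at 30 °C. Untreated cells (WT_1 to WT_3) were the same strain without MMS. Both had been grown in the rich medium YPD to an optical density of about 0.5. For untreated cells the labels give no time or temperature, and do not say whether these cells were also kept for 90 min. The labels give no dose of MMS and no vehicle, and they call the 3 libraries of a group biological replicates without saying what separates them, so p-values measure the spread between these libraries. The other 6 libraries, of a BY4741 strain with HEL2 deleted and with or without the same treatment, served to estimate the spread and for 1 comparison at the end. The ubiquitin ligase Hel2 binds ribosomes that have run into each other.

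MMS transfers methyl groups to bases of DNA and RNA. In yeast, damaged or stalled replication forks activate the kinases Mec1 and Rad53, which act through Dun1 to relieve repression by Rfx1 and so raise the supply of deoxynucleotides, while base excision repair removes the methylated bases. Many stresses also set off a shared program in this organism, in which genes of the ribosome and its assembly fall and genes for carbohydrate stores, chaperones, redox defence and protein turnover rise. The lists of genes used below follow these processes.

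The 6 libraries held 36472686 to 49717561 counts. Levels are CPM, counts set to a common library size with TMM scaling (trimmed mean of M values). A value is therefore relative to the other RNA sequenced, and fewer cells of a kind and less RNA per cell cannot be told apart in such bulk samples. Shares of counts, given in percent, are of the library total without TMM scaling. WT_MMS_1 stood apart from WT_MMS_2 and WT_MMS_3. The SD of its log2 deviation over genes was 0.407, against 0.291 and 0.28, and the lists below lay from -0.45 to 0.53 (log2) away from the other treated libraries in it. As checks of identity, HEL2 had 928 to 2431 counts in wild type cells, against 19 to 39 in the deletion strain. LEU2 and MET17 had at most 43 counts in any wild type library, and URA3 at most 10 outside WT_MMS_2, where it had 378. HIS3, whose deletion in this background is partial, had 3334 to 7513. All 6 marker genes of a cells were expressed, MFA1 at 446, 522 and 411 CPM in treated cells and 405, 480.0 and 399.9 CPM in untreated cells. Of the alpha-cell markers, MF(ALPHA)1 had 38 to 98 counts, MF(ALPHA)2 232 to 482 and STE3 133 to 511, while SAG1, which is also called alpha-agglutinin, had 1581 to 4731. The part of these counts in the results was not tested.

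A further 38 genes were high in 1 library alone, at least 5 times above both other replicates and at 5 CPM or more, and 18 of them passed the test. GCD14, a tRNA methyltransferase subunit gene, had 20.9 and 27.9 CPM in WT_MMS_1 and WT_MMS_2 but 7882 CPM in WT_MMS_3. GZF3, a repressor gene of nitrogen metabolism, had 3588 CPM in WT_1 and 22.3 and 24.4 CPM in the other untreated libraries. MCM5, a subunit gene of the replicative helicase, had 4764 CPM in WT_MMS_2 and 442 and 537 CPM in the other treated libraries. The calls of GCD14 and MCM5 each rest on 1 library. For GZF3 the size of the change rests on WT_1, but its lower call held without that library. With replicate number as a block over the 12 libraries GZF3 (adjusted p = 0.115) and MCM5 (adjusted p = 0.131) did not pass. Without all 38 genes, 4504 genes passed.

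In all, 4515 of 6463 genes passed edgeR's quasi-likelihood test at a Benjamini-Hochberg adjusted p under 0.05, which is 69.9% of the genes tested. Called higher were 2302 genes (35.6%), and called lower were 2213 (34.2%). Among these, 925 genes (14.3%) were at least 2-fold higher and 936 (14.5%) at least 2-fold lower. Treated and untreated libraries did not overlap in 4614 genes (71.4%). The median log2 fold change of all genes was 0.015, or 0.33 when libraries were scaled by their totals alone, which moved changes up across genes. Of the genes called, 51.0% were higher, against 69.3% under that scaling, where 1334 were lower. SML1, RAD53, APN1, RAD30, HXT1, TDH3 and MSN2, which did not pass, were called higher under that scaling. High and low expressed genes did not change alike. Of the 324 genes with the highest levels (top 5%), 48.5% fell at least 2-fold and 13% rose at least 2-fold, with a median of -0.91. Of the 1616 genes in the lowest 25%, 13.7% fell and 15% rose at that size, with a median of 0.058. With most genes passing, a count in a list is read against 35.6% higher and 34.2% lower.

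**Figure D1:**
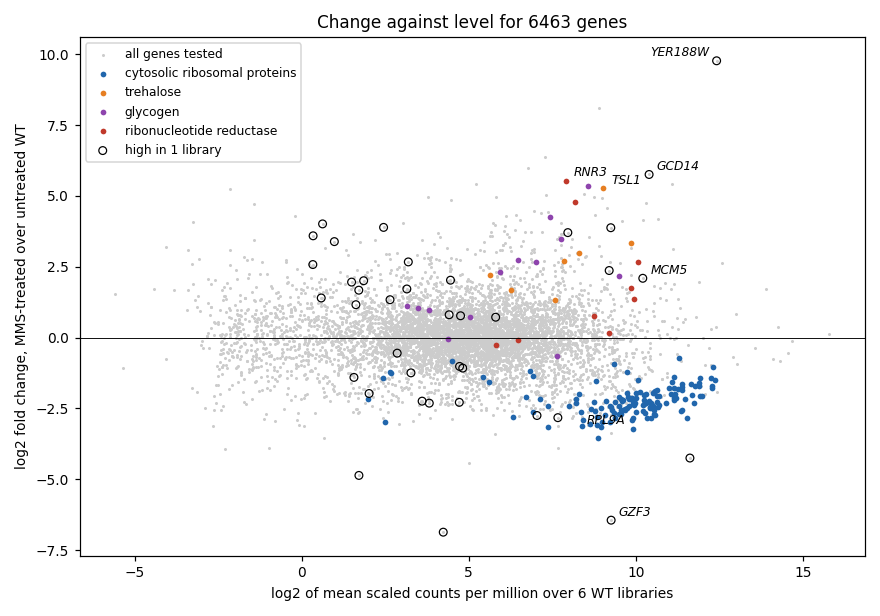
Log2 fold change of each gene (vertical axis, MMS-treated over untreated wild type) against its mean level over the 6 wild type libraries (horizontal axis, log2 CPM). Cytosolic ribosomal protein genes lie at high levels and below 0, trehalose and glycogen genes above 0 apart from 2 of 20, and open circles mark the 38 genes high in 1 library alone, YER188W, GCD14, MCM5 and GZF3 among them.

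**Figure D2:**
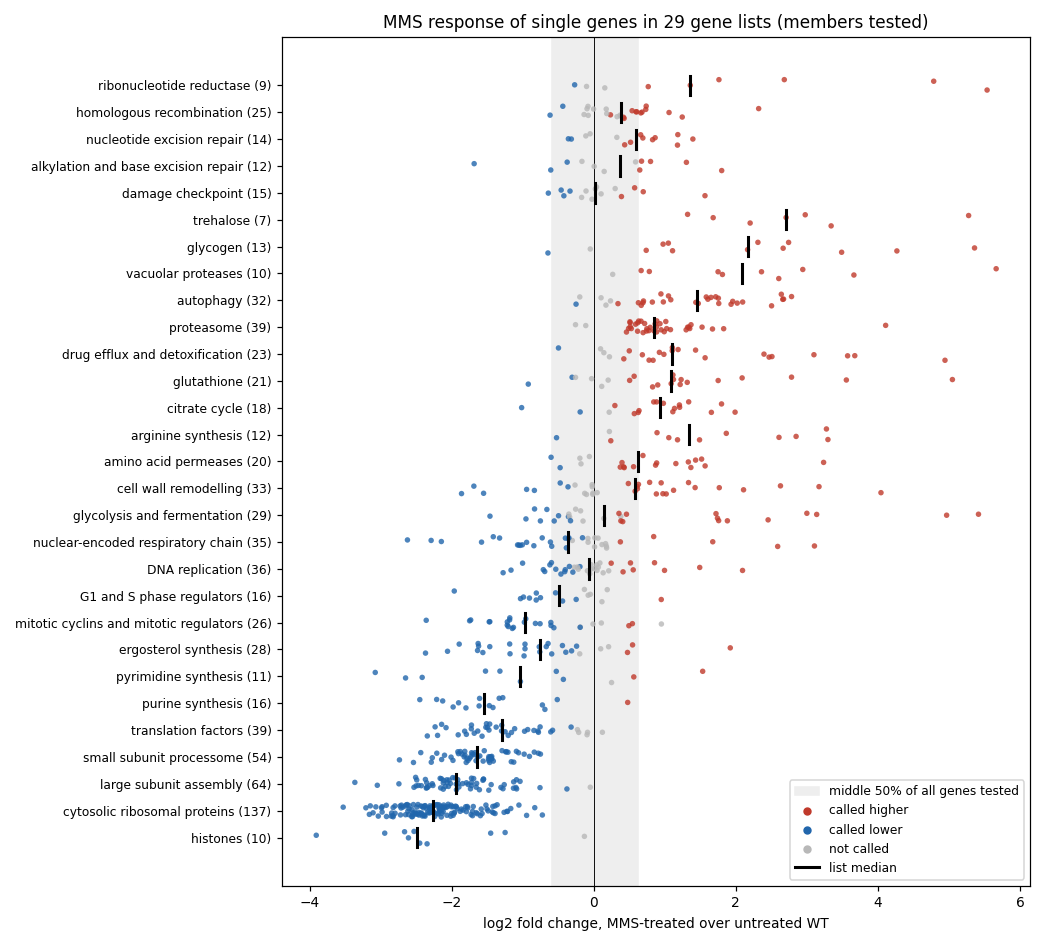
Log2 fold change of each tested member (points) of 29 gene lists in MMS-treated over untreated wild type cells, coloured by call, with the list median as a black bar and the number of members tested in parentheses. Medians run from 2.71 for trehalose to -2.49 for histones, and the grey band holds the middle 50% of all genes tested.

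Ribonucleotide reductase makes deoxynucleotides, and most of its genes rose. RNR3, the damage-inducible large subunit, had 497, 501 and 412 CPM in treated cells, against 11.1, 10.5 and 8.73 CPM in untreated cells. HUG1, an inhibitor of the small subunit, had 521, 624 and 525 CPM in treated cells, against 20.8, 22 and 17.8 CPM in untreated cells. Both were at most 22 CPM in all untreated libraries and lay above 400 CPM in all treated ones, with no overlap. The small subunit gene RNR2 had 2074, 1837 and 1636 CPM in treated cells, against 299.6, 292 and 273 CPM in untreated cells, a log2 fold change of 2.68 ± 0.10 (SE, n = 3 per group, adjusted p = 2.02e-10). RNR4, the other small subunit, rose by 1.76 ± 0.10 (adjusted p = 7.19e-09), and RNR1, the constitutive large subunit, by 1.36 ± 0.12 (adjusted p = 4.1e-07). HUG1 rose by 4.78 ± 0.12 (adjusted p = 6.37e-12) and RNR3 by 5.54 ± 0.17. Of the other regulators, neither SML1 nor DIF1 passed. SML1, the inhibitor of the large subunit that Dun1 marks for breakdown, had 745, 588 and 539 CPM in treated cells, against 605, 549.9 and 526 CPM in untreated cells, and the groups overlapped (adjusted p = 0.278). DIF1, which brings the small subunit into the nucleus, was at -0.10 ± 0.10 (adjusted p = 0.393), or 0.2 when scaled by library totals. Of 9 list members tested, 6 rose and 1 fell (median 1.36), and 8 rose and none fell under that scaling.

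**Figure D3:**
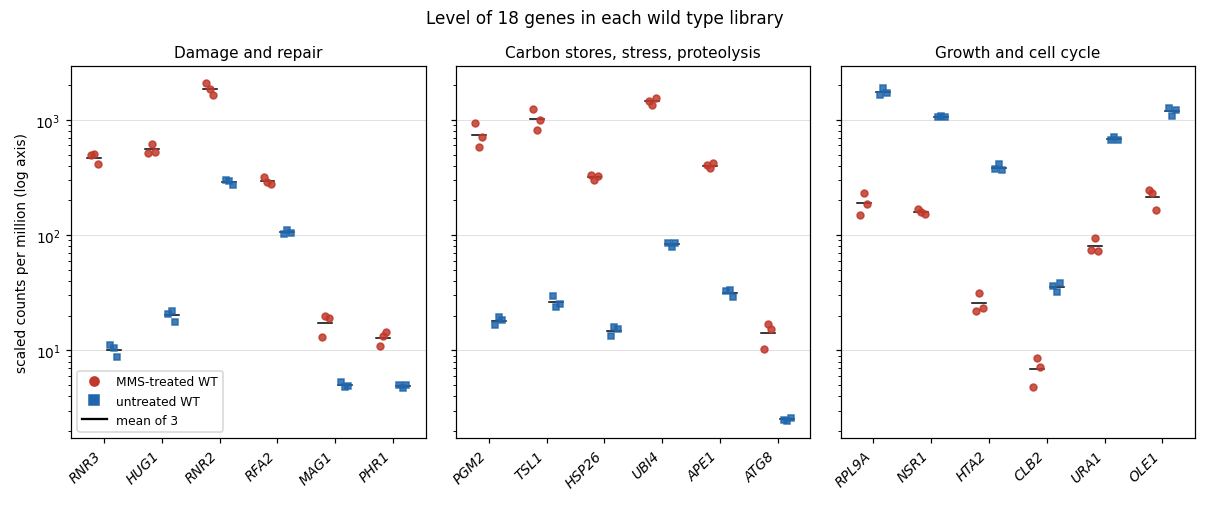
CPM (log axis) of 18 genes in each library, with treated wild type (red circles) left of untreated wild type (blue squares) and black bars for the mean of 3 libraries. In each of the 18 genes all 3 treated libraries lie on one side of all 3 untreated libraries, and heights should be compared within a gene only, since CPM is not corrected for gene length.

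Genes of the kinases and sensors that detect damage showed small and mixed changes, apart from DUN1. DUN1, the kinase that signals to the reductase, had 28.2, 41.7 and 36.3 CPM in treated cells, against 11.5, 12 and 12.4 CPM in untreated cells, and rose by 1.57 ± 0.13 (adjusted p = 1.97e-07). RFX1, the repressor below it, rose by 0.70 ± 0.12 (adjusted p = 0.000164). RAD53, the kinase above DUN1, had 9.79, 13.4 and 12.7 CPM in treated cells, against 8.99, 9.39 and 10.7 CPM in untreated cells, which overlap (adjusted p = 0.144). It passed without WT_MMS_1. MEC1, the first kinase of the pathway, was lower by 0.42 ± 0.068 (adjusted p = 9.77e-05), a call lost when libraries were scaled by their totals. Of 15 checkpoint genes, 4 rose and 4 fell (median 0.023), and 7 rose and none fell under that scaling. RAD9, an adaptor of the checkpoint, had 11.9, 20.4 and 17.6 CPM in treated cells, against 19.3, 23.9 and 25.6 CPM in untreated cells, and its lower call (adjusted p = 0.0349) was lost under that scaling, with the wild type libraries alone, and without WT_MMS_1, WT_MMS_3, WT_2 or WT_3.

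Among the enzymes that act on alkylated bases, MAG1, the glycosylase that removes 3-methyladenine, had 13.2, 20 and 19.2 CPM in treated cells, against 5.29, 4.8 and 4.95 CPM in untreated cells. The groups did not overlap, and the increase was 1.80 ± 0.16 (adjusted p = 4.09e-07), or 3.48-fold. NTG1, a glycosylase for oxidised bases, rose by 1.30 ± 0.11 (adjusted p = 1.49e-07). MGT1, which transfers alkyl groups from guanine to itself, had 29.5, 22.9 and 18.5 CPM in treated cells, against 18.4, 13.2 and 15.5 CPM in untreated cells. Its lowest treated value lay just above its highest untreated value, and it did not pass (adjusted p = 0.143), though it did in fits of the wild type libraries alone, with or without a replicate block. APN1, the main apurinic endonuclease gene, was at 0.15 ± 0.13 (adjusted p = 0.327), and passed without WT_MMS_1. Across base excision and alkylation repair, 5 of 12 genes rose and 3 fell (median 0.37). The strongest fall in that list was TPA1, a dioxygenase gene, at -1.68 ± 0.065 (adjusted p = 1.79e-10), with 79.7, 89.6 and 85.5 CPM in treated and 264, 281 and 273 CPM in untreated cells.

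Genes of repair paths for bulky lesions and strand breaks rose in part. PHR1, the photolyase gene, had 10.9, 13.4 and 14.3 CPM in treated cells, against 4.97, 4.71 and 5.03 CPM in untreated cells, an increase of 1.39 ± 0.12 (adjusted p = 2.16e-07). RAD16 and RAD7, which recognise damage in unexpressed DNA, rose by 1.18 ± 0.10 and 0.83 ± 0.089 (adjusted p = 1.85e-07 and 2.29e-06), and RAD2, an endonuclease that cuts beside the lesion, by 1.18 ± 0.26 (adjusted p = 0.0016). Of 14 nucleotide excision repair and photolyase genes, 9 rose and 2 fell (median 0.59). RAD55, a mediator of strand pairing, rose by 1.25 ± 0.13 (adjusted p = 1.52e-06) and TOP3, a topoisomerase that resolves joined molecules, by 1.06 ± 0.13 (adjusted p = 6.76e-06). RAD54, a motor protein of strand exchange, rose by 0.66 ± 0.13 (adjusted p = 0.000565). In the recombination list 13 of 25 genes rose, 2 fell and 10 did not pass, with a median of 0.38.

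Tolerance of damage at the fork showed few changes. RAD6, the ubiquitin-conjugating enzyme at the head of postreplication repair, fell by 1.00 ± 0.13 (adjusted p = 1.2e-05), with 18.7, 27.3 and 27.1 CPM in treated cells, against 47.6, 49.2 and 49.4 CPM in untreated cells. UBC13, which extends the chain that Rad6 begins, rose by 0.48 ± 0.11 (adjusted p = 0.00173), and REV1, a translesion polymerase, by 0.36 ± 0.087 (adjusted p = 0.00253). RAD30, the other translesion polymerase gene named here, was at 0.16 ± 0.10 (adjusted p = 0.148) and passed without WT_MMS_1. MMS2, the partner of UBC13, had 44.1, 55.7 and 50.8 CPM in treated cells, against 31.5, 999 and 36.4 CPM in untreated cells. Its value in WT_2 stands among the 38 noted above, and the gene did not pass. For postreplication repair as a whole, 3 of 10 genes rose and 1 fell. POL30, the sliding clamp, had 13.3, 17.4 and 13.5 CPM in treated cells, against 10.6, 12.3 and 9.64 CPM in untreated cells, a call (adjusted p = 0.0257) that was lost without WT_MMS_2, WT_1 or WT_3.

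In the replication machinery 8 of 36 genes rose and 14 fell (median -0.073). MCM5, high in WT_MMS_2 alone, was among the 8, and 7 rose without the genes high in 1 library. When scaled by library totals 4 fell, and the median was 0.25. RFA2, a subunit of the single-strand binding protein, rose by 1.49 ± 0.068 (adjusted p = 7.69e-10), with 319, 292 and 279.7 CPM in treated cells, against 102, 111 and 103 CPM in untreated cells. MCM7, of the replicative helicase, fell by 1.28 ± 0.068 (adjusted p = 3.06e-09). POL1, the catalytic subunit that primes synthesis, was at -0.34 ± 0.14 (adjusted p = 0.045), a call lost in 6 of the 16 alternative settings. PLM2, a forkhead-associated domain protein gene that responds to damage, had 36.5, 51.8 and 44.5 CPM in treated cells, against 9.8, 9.56 and 9.23 CPM in untreated cells, an increase of 2.22 ± 0.12 (adjusted p = 2.96e-09). DIN7, a nuclease gene named for its induction by damage, rose by 0.98 ± 0.10 (adjusted p = 1.9e-06). DDI2 and DDI3, cyanamide hydratase genes that are nearly identical, rose by 5.42 and 4.85, but how reads were divided between them is not given, so these are not independent values. In the list of cyanamide hydratases and other damage-induced genes 5 of 7 rose and 2 fell (median 0.98), the lowest at -2.09.

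Histone and cell cycle genes fell. HTA2, a histone H2A gene, had 22.1, 31.4 and 23.6 CPM in treated cells, against 374, 416 and 366 CPM in untreated cells. CLB2, the main mitotic cyclin, had 4.8, 8.63 and 7.12 CPM in treated cells, against 35.9, 31.9 and 38.1 CPM in untreated cells. In both every treated library lay far below every untreated one. Among 10 histone genes tested 9 fell (median -2.49), 9 of them at least 2-fold, and together they took 0.0775, 0.123 and 0.0982% of counts in treated cells, against 0.376, 0.42 and 0.399% in untreated cells. The variant HTZ1 fell least among the histone genes named, by 1.25 ± 0.081 (adjusted p = 1.78e-08). Of 26 mitotic genes 20 fell and 2 rose (median -0.97). CDC5, the polo kinase, fell by 1.73 ± 0.11 (adjusted p = 1.31e-08), SWI5, an activator of genes at mitotic exit, by 1.75 ± 0.15 (adjusted p = 2.76e-07) and CDC20, an activator of the anaphase complex, by 1.22 ± 0.15 (adjusted p = 1.01e-05). PDS1, the securin, had 8.75, 9.72 and 9.95 CPM in treated cells, against 10.9, 11.8 and 9.72 CPM in untreated cells, and SWE1, the kinase that delays mitosis, was at -0.011 ± 0.10; both pairs of groups overlapped and neither gene passed (adjusted p = 0.18 and 0.932).

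The G1 cyclins CLN1 and CLN2 fell by 1.03 ± 0.15 and 0.81 ± 0.079 (adjusted p = 4.22e-05 and 9.58e-07). SIC1, the inhibitor of S phase kinase, fell by 0.99 ± 0.12 (adjusted p = 1.01e-05), and PCL9, a cyclin of early G1, by 1.96 ± 0.13 (adjusted p = 2.37e-08). CLN3, the first G1 cyclin, was at -0.25 ± 0.093 (adjusted p = 0.0304) with overlapping groups. The call was lost in 5 settings, and the sign turned to 0.056 under library-total scaling. In this list 10 of 16 genes fell and 1 rose. Genes of daughter-cell separation were lower too. EGT2, a wall protein gene of early G1, fell by 2.44 ± 0.10 (adjusted p = 3.2e-10), SUN4, a wall glucanase family gene, by 2.31 ± 0.12 (adjusted p = 2.44e-09), PIR1, a wall protein gene, by 2.77 ± 0.12 (adjusted p = 3.73e-10) and CTS1, the chitinase that frees daughters, by 1.36 ± 0.12 (adjusted p = 2.46e-07). Here 10 of 14 genes fell and 1 rose (median -1.49). The shares of cells in each stage were not measured.

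Carbohydrate stores stood at the other end. TSL1, a regulatory subunit of trehalose synthase, had 1253, 814 and 988 CPM in treated cells, against 29.5, 23.9 and 25.4 CPM in untreated cells, an increase of 5.28 ± 0.16 (adjusted p = 3.07e-11). TPS1 and TPS2, which carry out synthesis in sequence, rose by 3.34 ± 0.13 and 2.71 ± 0.064 (adjusted p = 2.02e-10 and 6.37e-12). NTH1, a trehalase that breaks the sugar down, rose as well, by 2.98 ± 0.09 (adjusted p = 3.07e-11). All 7 trehalose genes were called higher, each at least 2-fold, with a median of 2.71. Together they took 0.428, 0.391 and 0.452% of counts in treated cells, against 0.0414, 0.0403 and 0.0406% in untreated cells. Glycogen genes for synthesis and breakdown also rose together, 11 of 13 with a median of 2.17. PGM2, the phosphoglucomutase that feeds both stores, had 938, 579.8 and 711 CPM in treated cells, against 16.6, 19.5 and 18.2 CPM in untreated cells. GPH1, glycogen phosphorylase, rose by 4.27 ± 0.33 (adjusted p = 5.39e-07) and GSY2, glycogen synthase, by 3.49 ± 0.13 (adjusted p = 1.78e-10). WT_MMS_1 was the highest treated library for TSL1, PGM2, GPH1 and GSY2, and the glycogen list lay 0.39 (log2) above the other treated libraries in it. Without WT_MMS_1 the medians were 2.69 for trehalose and 1.95 for glycogen.

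Heat shock genes parted by type. HSP26 and HSP42, small heat shock proteins that hold unfolded proteins, rose by 4.42 ± 0.16 and 4.29 ± 0.20 (adjusted p = 8.73e-11 and 7.61e-10). HSP104, the disaggregase, rose by 2.87 ± 0.10 (adjusted p = 8.52e-11) and HSP78, its mitochondrial relative, by 3.19 ± 0.10 (adjusted p = 4.68e-11). SSA4, an inducible Hsp70, had 243, 177 and 246 CPM in treated cells, against 23.5, 23.1 and 28.7 CPM in untreated cells. SSB1, an Hsp70 bound to ribosomes, went the other way, with 830.1, 714 and 629 CPM in treated cells, against 3122, 2936 and 2862 CPM in untreated cells, a fall of 2.04 ± 0.13 (adjusted p = 1.5e-08). HSF1, the transcription factor of heat shock, rose by 0.52 ± 0.074 (adjusted p = 3.4e-05). Of 27 chaperones and cochaperones 13 rose and 10 fell, 10 and 5 of them at least 2-fold, so the median of 0.28 describes few members.

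Protein breakdown rose broadly. Of 39 genes of the proteasome, its Cdc48 partners and polyubiquitin 37 rose and none fell, and the median was 0.85. Their summed share of counts was 1.28, 1.62 and 1.73% in treated cells, against 0.572, 0.606 and 0.603% in untreated cells. UBI4, the polyubiquitin gene, had 1468, 1344 and 1533 CPM in treated cells, against 86.4, 79.5 and 86.2 CPM in untreated cells, and was the member that rose most, by 4.11 ± 0.10 (adjusted p = 6.37e-12). RPN4, the activator of proteasome genes, rose by 0.86 ± 0.12 (adjusted p = 2.21e-05), UMP1, a proteasome assembly factor, by 1.67 ± 0.089 (adjusted p = 2.69e-09), and UFD1, an adaptor of Cdc48, by 1.83 ± 0.10 (adjusted p = 3.28e-09). Among 24 genes of ubiquitin transfer and removal 17 rose and 2 fell. UBC5, a conjugating enzyme for abnormal proteins, rose by 2.78 ± 0.15 (adjusted p = 2.61e-09), and DDI1, a shuttle and protease that shares a promoter with MAG1, by 2.36 ± 0.085 (adjusted p = 1.02e-10).

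Vacuolar breakdown rose with it. APE1, an aminopeptidase carried by autophagy, had 404, 379 and 418 CPM in treated cells, against 32.5, 33.6 and 28.9 CPM in untreated cells. PRB1, the main vacuolar serine protease, rose by 2.60 ± 0.11 (adjusted p = 4.25e-10), and PEP4, which activates the others, by 1.81 ± 0.15 (adjusted p = 1.76e-07). The inhibitors TFS1, of carboxypeptidase Y, and PAI3, of Pep4, rose too, by 5.66 ± 0.19 and 2.94 ± 0.16 (adjusted p = 5.49e-11 and 2.87e-09). Over proteases and inhibitors 9 of 10 genes rose and none fell. In autophagy 27 of 32 genes rose and 1 fell (median 1.45). ATG8, which builds the autophagosome membrane, had 10.3, 17.1 and 15.5 CPM in treated cells, against 2.51, 2.46 and 2.61 CPM in untreated cells, and ATG1, the kinase that starts the process, rose by 1.44 ± 0.11 (adjusted p = 8.34e-08). ATG39, a receptor for parts of the nucleus, rose by 2.78 ± 0.16 (adjusted p = 4.31e-09), and ATG41 by 2.67 ± 0.14 (adjusted p = 2.85e-09).

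Redox and detoxification genes rose in large part. GTT2, a glutathione transferase, had 334, 281 and 306 CPM in treated cells, against 10.1, 8.77 and 8.91 CPM in untreated cells. GTT1, the other main transferase, rose by 2.78 ± 0.14 (adjusted p = 1.91e-09), ECM4, a transferase of the omega class, by 3.56 ± 0.093 (adjusted p = 9.26e-12) and GSH1, which makes the first step of glutathione, by 1.22 ± 0.069 (adjusted p = 5.03e-09). Of 21 glutathione genes 15 rose and 2 fell (median 1.09). TSA2, an inducible peroxiredoxin, rose by 4.16 ± 0.15 and SRX1, which repairs oxidised peroxiredoxins, by 3.96 ± 0.20 (adjusted p = 1e-10 and 1.49e-09). In the thioredoxin list 10 of 11 rose and 1 fell. CTT1, the cytosolic catalase, had 65.9, 63.5 and 51.7 CPM in treated cells, against 79.7, 48.3 and 48.2 CPM in untreated cells, which overlap (adjusted p = 0.877). SOD1 and SOD2, the superoxide dismutases, rose by 0.73 ± 0.11 and 0.56 ± 0.10 (adjusted p = 6.34e-05 and 0.000182).

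Efflux genes rose as well, with exceptions. FLR1, a drug efflux pump under Yap1, had 1149, 927 and 896 CPM in treated cells, against 36.6, 27.9 and 32.1 CPM in untreated cells. ATR1, also an efflux pump, rose by 2.40 ± 0.10 (adjusted p = 4.95e-10), OYE3, an NADPH oxidoreductase, by 3.57 ± 0.14 (adjusted p = 2.86e-10) and AAD6, a putative alcohol dehydrogenase, by 3.67 ± 0.13 (adjusted p = 1e-10). YAP1 itself, the oxidative stress activator, rose by 1.10 ± 0.14 (adjusted p = 8.36e-06). PDR5, the main multidrug pump, fell by 0.5 ± 0.12 (adjusted p = 0.00209) while its relative PDR15 rose by 1.57 ± 0.14 (adjusted p = 3.04e-07). In the whole list 19 of 23 rose and 1 fell. Of 6 aldehyde dehydrogenases 4 rose and 1 fell. ALD3, a stress-induced one, rose by 3.92 ± 0.24 (adjusted p = 2.18e-08), and ALD6, the main cytosolic one, fell by 0.55 ± 0.11 (adjusted p = 0.000679).

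Sugar uptake changed gene by gene. HXT7, a high-affinity hexose transporter, had 483, 211 and 277 CPM in treated cells, against 17.3, 19.8 and 15.5 CPM in untreated cells, with WT_MMS_1 the highest. HXT2, a transporter of intermediate affinity, fell by 2.5 ± 0.16 (adjusted p = 1.3e-08), with 178, 112 and 115 CPM in treated and 856, 719 and 723 CPM in untreated cells. HXT1, a low-affinity transporter, had 1013, 712 and 732 CPM in treated cells, against 835, 698 and 754 CPM in untreated cells, which overlap (adjusted p = 0.497). HXT6 and HXT7 are nearly identical, and their counts cannot be told apart with the counting rule not given. Of 24 genes of transport and sensing 7 rose and 7 fell (median -0.026). Under library-total scaling 11 rose, and the median was 0.29.

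Glycolysis split between isoforms. GLK1, glucokinase, had 5819.9, 3091 and 3714 CPM in treated cells, against 105, 108 and 83.1 CPM in untreated cells, an increase of 5.41 ± 0.24 (adjusted p = 5.09e-10). TDH1, a stress form of glyceraldehyde-3-phosphate dehydrogenase, rose by 3.14 ± 0.17 (adjusted p = 3.16e-09), while TDH3, the main form, had 76474, 50418 and 51496 CPM in treated cells, against 57094, 53999 and 50569 CPM in untreated cells, which overlap. ADH1, the fermentative alcohol dehydrogenase, was at 0.38 ± 0.15 (adjusted p = 0.0333), a call lost with RLE scaling, with the wild type libraries alone, and without WT_MMS_1, WT_2 or WT_3. The list took 20.6, 18.1 and 18.3% of counts in treated cells, against 15.9, 15.2 and 14.7% in untreated cells. Of 29 genes 13 rose and 9 fell (median 0.14). Without WT_MMS_1 the median was -0.085. PCK1 and FBP1, the enzymes particular to glucose synthesis, rose by 1.68 ± 0.11 and 1.04 ± 0.21 (adjusted p = 2.4e-08 and 0.000754), and 10 of 12 genes of that path and the glyoxylate cycle rose. In the pentose phosphate pathway 7 of 13 rose and 4 fell. SOL4, a lactonase of its oxidative branch, rose by 4.98 ± 0.16 (adjusted p = 5.14e-11).

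The citrate cycle and the respiratory chain moved apart. CIT1, mitochondrial citrate synthase, had 446, 307 and 337 CPM in treated cells, against 93.8, 91.8 and 89 CPM in untreated cells, an increase of 1.99 ± 0.11 (adjusted p = 4.97e-09). SDH4, of succinate dehydrogenase, rose by 1.80 ± 0.16 (adjusted p = 2.76e-07) and IDH1, of isocitrate dehydrogenase, by 1.66 ± 0.11 (adjusted p = 2.64e-08). Of 18 citrate cycle genes 15 rose and 2 fell (median 0.93). Of 35 nuclear genes of the respiratory chain and ATP synthase 5 rose and 20 fell (median -0.36). Under library-total scaling 13 moved each way, and the median was -0.051. NDE1, the main external NADH dehydrogenase, fell by 2.62 ± 0.14 (adjusted p = 3.28e-09) and its relative NDE2 rose by 2.59 ± 0.23 (adjusted p = 4.36e-07). HAP4, the activator of respiratory genes, was lower by 0.54 ± 0.13 (adjusted p = 0.0019), a call lost under that scaling. Of 67 mitochondrial ribosomal protein genes 32 fell and 7 rose (median -0.25), while library-total scaling gave 0.068 with 4 lower and 15 higher.

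Many yeast genes come as pairs of related genes, and in some pairs one member is used in growing cells and the other under stress or poor carbon. The pairs listed here are of that and other kinds, among them histone, cyclin, ribosomal protein and enzyme subunit genes. Of 55 pairs listed 54 were tested. Of these 18 had members called in opposite directions, 13 had both members higher, 13 both lower, and 10 had 1 member called. The pairs were chosen with earlier results of these data known, so these counts describe them only. HXK1 had 940.1, 746 and 788 CPM in treated cells, against 23.8, 28.5 and 26.9 CPM in untreated cells, and its partner HXK2, the main hexokinase of growth on glucose, had 1016, 979.9 and 821 CPM in treated cells, against 2699, 2649 and 2403 CPM in untreated cells. The groups did not overlap in either gene. CYC7, the cytochrome c of low oxygen, rose by 3.11 ± 0.26 and CYC1, the main form, fell by 2.29 ± 0.10 (adjusted p = 1.73e-07 and 7.32e-10). COX5B and COX5A, alternative cytochrome oxidase subunits, were at 1.67 ± 0.12 and -1.58 ± 0.11 (adjusted p = 3.49e-08 and 2.9e-08). Hsp90 showed the same split, with HSP82 higher by 1.72 ± 0.14 and HSC82 lower by 1.04 ± 0.087 (adjusted p = 1.62e-07 and 1.97e-07). In nucleotide synthesis, URA10 rose by 1.53 ± 0.11 and URA5 fell by 1.32 ± 0.09 (adjusted p = 3.49e-08 and 2.7e-08), and ADE16 rose by 0.48 ± 0.087 and ADE17 fell by 2.45 ± 0.08 (adjusted p = 0.000287 and 4.78e-11). RPL9A and RPL9B, of the large ribosomal subunit, fell by 3.21 and 0.94. How reads that match both members of a pair were counted is not given. Values of closely alike members may therefore not be independent. Of the elongation factor 3 genes, YEF3 fell by 1.91 and HEF3 did not pass, at -0.087 ± 0.20 (adjusted p = 0.713).

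**Figure D4:**
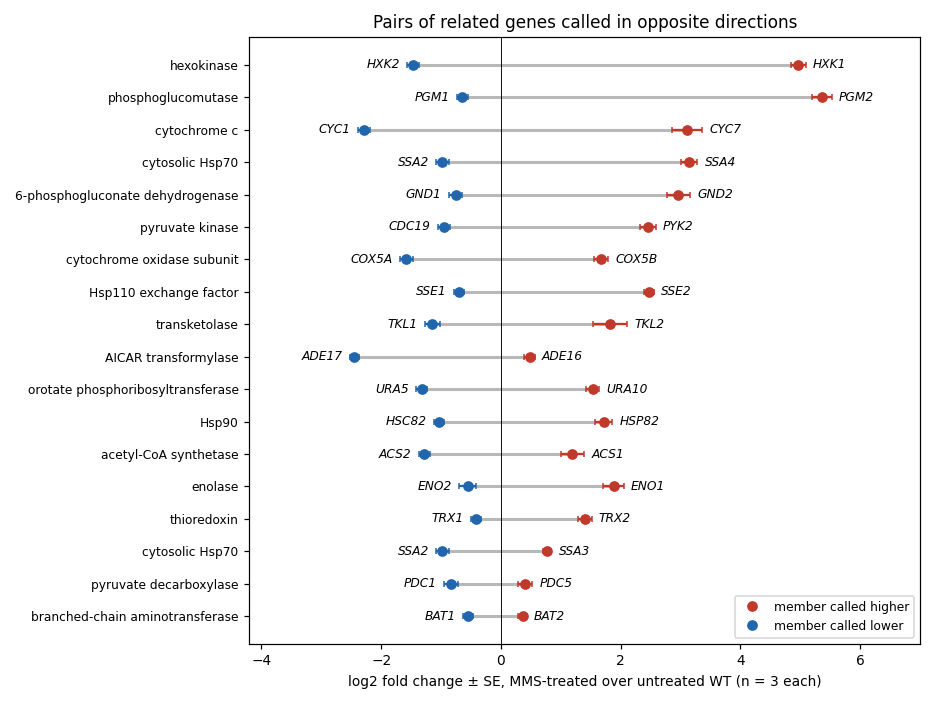
Log2 fold change ± SE (horizontal axis, MMS-treated over untreated wild type, n = 3 each) of the 18 pairs of related genes called in opposite directions, with the member called higher in red and the member called lower in blue. HXK1 at 4.97 and HXK2 at -1.46 lie farthest apart, and BAT2 at 0.36 and BAT1 at -0.56 lie closest.

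Amino acid synthesis did not move as a whole. Arginine genes rose, 10 of 12 with a median of 1.33. ARG4, argininosuccinate lyase, had 681, 577 and 602 CPM in treated cells, against 84.1, 88.9 and 85.3 CPM in untreated cells. LYS1, the last enzyme of lysine synthesis, rose by 2.91 ± 0.10 (adjusted p = 5.55e-11), HIS5 of histidine synthesis by 1.00 ± 0.064 (adjusted p = 1.39e-08) and TRP5 of tryptophan synthesis by 0.99 ± 0.13 (adjusted p = 1.76e-05). Lysine genes as a list had 4 of 8 higher and 2 lower (median 0.14), with LYS4, homoaconitase, at -1.36 ± 0.095. Histidine genes had 3 of 6 higher and 2 lower (median 0.25), with HIS6 at -0.79 ± 0.065. Branched-chain genes mostly fell, 8 of 11, with ILV5, an enzyme of valine and isoleucine synthesis, lower by 1.46 ± 0.095 (adjusted p = 1.71e-08), though LEU4, the first enzyme of leucine synthesis, rose by 1.61 ± 0.15 (adjusted p = 4.34e-07). In methionine and sulfur metabolism 12 of 21 rose and 6 fell. SAM1 and SAM2, which make the methyl donor S-adenosylmethionine, fell by 2.32 ± 0.12 and 2.22 ± 0.10 (adjusted p = 2.02e-09 and 8.45e-10), and MET3, which starts sulfate assimilation, rose by 1.21 ± 0.08 (adjusted p = 1.95e-08). SHM2, the cytosolic enzyme that links serine to one-carbon units, fell by 1.80 ± 0.11 (adjusted p = 1.43e-08). SNZ1, of vitamin B6 synthesis, rose by 1.5 ± 0.10 (adjusted p = 3.09e-08).

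Uptake and use of nitrogen compounds rose in part. AGP2, a regulator of carnitine and polyamine uptake, had 221, 136 and 156 CPM in treated cells, against 21.2, 16.6 and 16.6 CPM in untreated cells. GAP1, the general amino acid permease, rose by 1.43 ± 0.25 (adjusted p = 0.000208) and BAP2, for branched-chain amino acids, by 1.57 ± 0.15 (adjusted p = 6.94e-07). Of 20 transporters 15 rose and 2 fell, or 5 fell without WT_MMS_1, in which the list lay 0.53 (log2) above the other treated libraries. UGA1 and UGA2, which break down the amino acid GABA, rose by 2.25 ± 0.094 and 2.54 ± 0.12 (adjusted p = 3.65e-10 and 8.66e-10). GAD1, which makes GABA from glutamate, had 813, 562 and 651 CPM in treated cells, against 19.6, 21.1 and 20.3 CPM in untreated cells. Of 24 genes under nitrogen repression 15 rose and 5 fell, with 3 lower without WT_MMS_1 or when replicate numbers entered as a block in a fit of the wild type alone, and 2 lower without WT_MMS_2.

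Nucleotide synthesis fell while the reductase that acts on its products rose. Of 16 purine genes 15 fell and 1 rose (median -1.54). ADE17, which carries out late steps of the path, had 197, 185 and 172 CPM in treated cells, against 1054, 995 and 981 CPM in untreated cells. IMD4 and GUA1, of guanine nucleotide synthesis, fell by 2.21 ± 0.12 and 2.13 ± 0.10 (adjusted p = 4.76e-09 and 6.52e-10). AAH1, adenine deaminase, fell by 3.11 ± 0.10 (adjusted p = 3.67e-11), to 43.2, 46.4 and 37.5 CPM in treated cells, against 354, 390.3 and 356 CPM in untreated cells. In pyrimidine synthesis and salvage 8 of 11 genes fell and 2 rose. URA1, dihydroorotate dehydrogenase, had 74.4, 93.9 and 72.9 CPM in treated cells, against 664, 705 and 664 CPM in untreated cells, and URA7, CTP synthase, fell by 2.65 ± 0.089 (adjusted p = 5.37e-11).

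Genes of ribosome production fell almost without exception. All 137 cytosolic ribosomal protein genes tested fell, 134 of them at least 2-fold, with a median of -2.26. Their share of counts was 6.83, 8.69 and 7.55% in treated cells, against 24, 26.2 and 24.3% in untreated cells. RPS30B fell most among them, by 3.53 ± 0.20 (adjusted p = 5.95e-09), and RPS3, of the small subunit, had 576, 730.1 and 627 CPM in treated cells, against 2950.2, 3492 and 3035 CPM in untreated cells. All 54 genes of small subunit assembly and 63 of 64 of large subunit assembly fell, with medians of -1.64 and -1.93. NOP56, a core protein of box C/D particles, fell by 2.54 ± 0.12 (adjusted p = 1.26e-09), and DBP2, an RNA helicase, by 3.36 ± 0.19 (adjusted p = 4.19e-09). RPA190, the largest subunit of RNA polymerase I, had 177, 183 and 177 CPM in treated cells, against 709, 654 and 744 CPM in untreated cells. Of 22 genes of polymerases I and III 21 fell, with a median of -1.44. For polymerase II 7 of 11 fell, while its largest subunit RPO21 was at -0.065 ± 0.10 (adjusted p = 0.57), or 0.24 under library-total scaling.

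Translation factors fell with the ribosome, 34 of 39 with none higher and a median of -1.30. YEF3, elongation factor 3, had 2603, 2196 and 2104 CPM in treated cells, against 8906, 8473 and 8522 CPM in untreated cells. TIF11, which encodes initiation factor eIF1A, fell by 2.23 ± 0.22 (adjusted p = 1.73e-06), CDC33, which binds the cap, by 2.20 ± 0.15 (adjusted p = 2.04e-08) and STM1, a factor that preserves idle ribosomes, by 2.34 ± 0.16 (adjusted p = 2.91e-08). Genes of ribosome quality control and of the integrated stress response, which Gcn2 starts, had a median of -0.32. HEL2 itself was lower by 0.71 ± 0.14 (adjusted p = 0.000611), with 28.6, 33.9 and 41.4 CPM in treated cells, against 51.8, 54.7 and 63.4 CPM in untreated cells, a call lost under library-total scaling. GCN2, the kinase of that response, was at -0.28 ± 0.10 (adjusted p = 0.0258), or 0.050 under that scaling, and its call was also lost with the wild type libraries alone and without WT_MMS_1, WT_2 or WT_3. GCN4, its transcription factor, had 667, 685 and 589 CPM in treated cells, against 1032, 1068 and 977 CPM in untreated cells. It is controlled mostly in translation, which this assay does not measure. Of 22 genes 4 rose and 13 fell, or 8 fell under library-total scaling.

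Cell wall genes rose and fell by member. CWP1, a mannoprotein of the wall, had 2197, 1459 and 1379 CPM in treated cells, against 197, 188 and 175 CPM in untreated cells. SPI1 and SED1, also wall proteins, rose by 4.04 ± 0.24 and 2.63 ± 0.16 (adjusted p = 1.06e-08 and 9.89e-09), and GSC2, the inducible glucan synthase, by 2.11 ± 0.13 (adjusted p = 1.27e-08). Of 33 wall genes 18 rose and 7 fell. The list took 7.17, 6.08 and 5.77% of counts in treated cells, against 4.91, 4.49 and 4.49% in untreated cells. WT_MMS_1 lay 0.41 (log2) above the other treated libraries for it.

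Lipid synthesis fell and lipid breakdown rose. OLE1, the fatty acid desaturase, had 244, 232 and 166 CPM in treated cells, against 1257, 1079.5 and 1210.2 CPM in untreated cells. FAS1 and FAS2, of fatty acid synthase, fell by 2.00 ± 0.11 and 1.88 ± 0.11 (adjusted p = 4.3e-09 and 8.1e-09), and 8 of 12 genes of that path fell. In ergosterol synthesis 22 of 28 fell and 3 rose, with ERG11, the target of azole drugs, lower by 2.06 ± 0.10 (adjusted p = 1.33e-09) and ARE2, which esterifies sterols for storage, higher by 1.92 ± 0.11 (adjusted p = 5.57e-09). Of 28 genes of fatty acid oxidation and the peroxisome 20 rose and 1 fell. CAT2, a carnitine acetyltransferase, rose by 1.59 ± 0.086 (adjusted p = 3.43e-09).

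Smaller programs moved in part. In the endoplasmic reticulum 14 of 21 folding genes rose and 2 fell, with ERO1, which drives disulfide formation, higher by 1.29 ± 0.087 (adjusted p = 2.52e-08) and KAR2, the Hsp70 of that compartment, by 0.59 ± 0.088 (adjusted p = 5.16e-05). For iron, 15 of 23 genes rose and 6 fell. FIT2, a wall protein that holds iron chelators, rose by 1.95 ± 0.21 (adjusted p = 1.97e-06), while FET3, the oxidase of high-affinity uptake, fell by 0.59 ± 0.11 (adjusted p = 0.000382). PHO84, the high-affinity phosphate transporter, had 511, 232 and 247 CPM in treated cells, against 469, 305 and 295 CPM in untreated cells, which overlap (adjusted p = 0.758). PHO3, a constitutive acid phosphatase, fell by 2.79 ± 0.093 (adjusted p = 5.37e-11). Among phosphate genes 7 of 21 rose and 8 fell. BAR1, the protease that degrades the alpha pheromone, fell by 1.33 ± 0.078 (adjusted p = 6.47e-09), and of 17 mating genes 7 fell and 1 rose, or 1 fell and 7 rose under library-total scaling.

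Of 40 genes of stress kinases and transcription factors 23 rose and 6 fell. XBP1, a repressor induced by stress, had 134, 92.8 and 99.1 CPM in treated cells, against 13.2, 13.2 and 12.2 CPM in untreated cells. USV1, a zinc finger factor, rose by 2.08 ± 0.15 (adjusted p = 5.03e-08), MSN4, of the general stress response, by 1.45 ± 0.092 (adjusted p = 1.4e-08) and CIN5, a relative of Yap1, by 1.37 ± 0.10 (adjusted p = 8.19e-08). MSN2, the constitutive partner of MSN4, was at 0.11 ± 0.064 (adjusted p = 0.127). TOD6, a repressor of ribosome assembly genes, fell by 1.82 ± 0.12 (adjusted p = 1.38e-08). Among named genes at a mean log2 CPM of at least 4 and with no overlap, the strongest falls apart from GZF3 were CYB5, cytochrome b5, at -4.43 ± 0.18 (adjusted p = 3.49e-10), and HTA2. SFG1, a factor of filamentous growth, fell by 3.40 ± 0.10 (adjusted p = 2.33e-11), with 9.27, 10.3 and 8.87 CPM in treated cells, against 97.3, 101 and 102 CPM in untreated cells.

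Some rises had no standard name. YMR090W had 286, 253 and 286 CPM in treated cells, against 13.1, 13.1 and 12.5 CPM in untreated cells, and YNL134C had 3291, 2899 and 3063 CPM in treated cells, against 164, 179 and 161 CPM in untreated cells. Both rose in every library without overlap, by 4.41 ± 0.10 and 4.20 ± 0.10 (adjusted p = 5.23e-12 and 6.37e-12). Of 607 unnamed protein-coding ORFs tested, 291 rose and 122 fell, with a median of 0.40, whereas 1894 rose and 1895 fell among 5227 named protein-coding genes. Of 75 snoRNA genes 61 were lower and 2 higher. Of 131 tRNA genes 48 were lower and 19 higher, a share of lower calls near that of all genes, and of 3 snRNA genes 1 was higher and none lower. The libraries were selected on poly(A), and reads of host or neighbouring transcripts cannot be told apart from these RNAs without the strand setting.

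**Figure D5:**
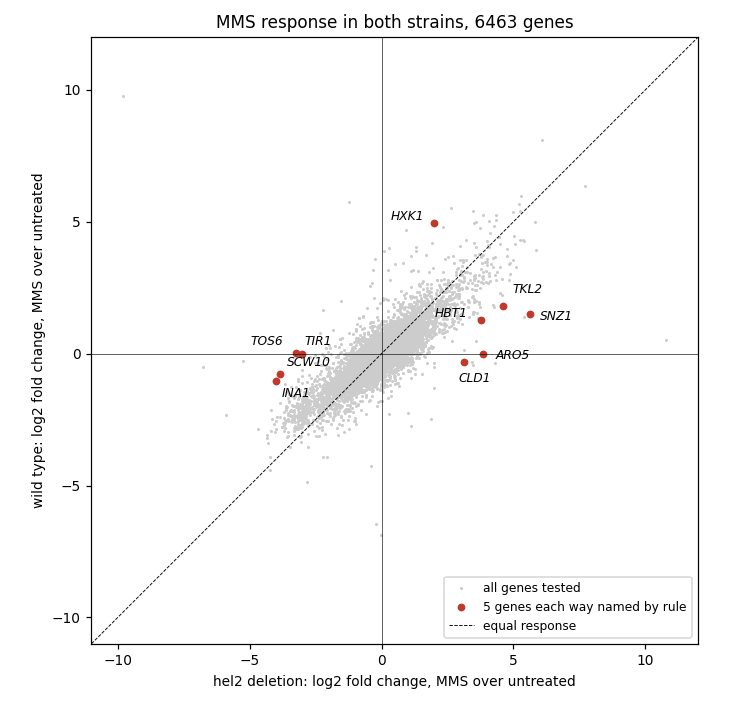
Log2 fold change under MMS of 6463 genes in wild type cells (vertical axis) and in hel2 deletion cells (horizontal axis), with the dashed line marking equal responses. Red points mark the 5 largest called differences each way among genes that have a symbol and average at least 4 log2 CPM, from SNZ1 at -4.15 below the line to TOS6 at 3.28 above it.

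To see which responses differed from those of cells without Hel2, the difference of the MMS effects was tested for each gene. It passed for 2587 genes, 40.0% of those tested, with the wild type response above that of the deletion in 1387 and below it in 1200. Under library-total scaling these counts were 748 and 1491, so the balance of directions depends on the scaling. SNZ1, of vitamin B6 synthesis, changed by 1.5 ± 0.10 in the wild type and 5.65 ± 0.12 in the deletion strain, a difference of -4.15 ± 0.15 (adjusted p = 7.15e-09). TKL2, a minor transketolase, changed by 1.83 ± 0.28 in the wild type and 4.6 ± 0.31 in the deletion strain, a difference of -2.77 ± 0.39 (adjusted p = 0.00035). HBT1 differed by -2.5 ± 0.31 (adjusted p = 0.000105). SNZ1, TKL2 and HBT1 rose in both strains, and less in the wild type. ARO5 and CLD1, a cardiolipin lipase, differed by -3.86 ± 1.08 (adjusted p = 0.0208) and -3.45 ± 0.94 (adjusted p = 0.0177), but their untreated wild type libraries scattered widely, ARO5 with 23.1, 6.58 and 66.4 CPM and CLD1 with 8.55, 8.8 and 41.9 CPM. The strains also differed in LEU2, with 2 to 28 counts in wild type cells, against 19374 to 28105 in deletion cells, and the labels do not give the marker used. The part of LEU2 in the differences was not tested.

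Wall genes stood among the responses above those of the deletion strain. TOS6 and TIR1, wall mannoproteins, did not pass in the wild type, at 0.042 ± 0.14 and -0.014 ± 0.17 (adjusted p = 0.81 and 0.951), and were at -3.24 ± 0.16 and -3.03 ± 0.19 in the deletion strain. Their differences were 3.28 ± 0.21 (adjusted p = 4.56e-07) and 3.02 ± 0.25 (adjusted p = 3.09e-06). The wall glucanase gene SCW10 and the membrane protein gene INA1 fell in both strains but less in the wild type, with differences of 3.08 ± 0.16 (adjusted p = 9.48e-08) and 2.96 ± 0.23 (adjusted p = 1.92e-06). HXK1 rose by 4.97 ± 0.13 in the wild type and 1.98 ± 0.11 in the deletion strain, with a difference of 2.99 ± 0.15 (adjusted p = 9.48e-08). RNR3 and CWP1 were added after their values were seen. RNR3 rose by 5.54 ± 0.17 in the wild type and 2.64 ± 0.15 in the deletion strain, a difference of 2.90 ± 0.20 (adjusted p = 9.83e-07). CWP1 rose by 3.17 ± 0.17 in the wild type and was at 0.23 ± 0.16 in the deletion strain (adjusted p = 0.205), a difference of 2.94 ± 0.23 (adjusted p = 2.15e-06).

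Over all 6463 genes the difference passed with the wild type above for 1387 and below for 1200, and counts by list are read against these. Some of the lists are given here. It passed with the wild type above for 93 of 137 cytosolic ribosomal protein genes and below for 3. Their median change was -2.26 in the wild type and -3.03 in the deletion strain. For arginine synthesis it passed with the wild type below for 10 of 12, with medians of 1.33 in the wild type and 2.88 in the deletion strain. Lysine and histidine synthesis leaned the same way, with the wild type below for 7 of 8 and 6 of 6 genes. For glycolysis and fermentation it passed with the wild type above for 24 of 29, with medians of 0.14 in the wild type and -0.80 in the deletion strain. For ribonucleotide reductase it passed with the wild type above for 8 of 9. Fatty acid synthesis and cell wall genes also leaned that way, with the wild type above for 11 of 12 and 24 of 33. Library-total scaling gave 65 ribosomal protein, 10 arginine, 24 glycolysis and 6 reductase genes in these directions, against 748 above and 1491 below over all genes.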

How the data were processed

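RNA of BY4741 cells was extracted with hot phenol and selected with oligo(dT), per the labels' protocols. Reads were processed with STAR 2.5.1a and featureCounts 1.4.6-p5 of Subread, per the submitters' processing notes, which also name Salmon. Which build and annotation were used, whether counting used strand, and how reads with several alignments were treated is not given in the sources used here. The deposited table holds whole-number counts per gene, not normalized. It has 7230 lines for 7109 identifiers, of which 97 were repeated with equal counts and entered a single time. Symbols came from the RefSeq R64 table, which matched 6042 identifiers.

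Counts of all 12 libraries were fitted in edgeR 4.0.16 under R 4.3.3, with filterByExpr, TMM scaling and robust quasi-likelihood dispersion, 1 coefficient per group. The contrasts were treated minus untreated wild type, and that effect minus the effect in the HEL2 deletion strain. A gene was called at a Benjamini-Hochberg adjusted p under 0.05 over 6463 genes. Adjusted p-values in the text come from this test unless another setting is named, and all fold changes are log2 unless marked. Each ± on them is an SE of this fit, with 3 libraries per group and the spread estimated over all 12 libraries. CPM per library is TMM-scaled. Depth was 36472686 to 49717561 counts per wild type library, so sampling error is small for all but low genes; no share of counts is corrected for duplicate reads. No pair of replicates agreed within sampling noise (lowest chi-square per degree of freedom 63.6).

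The genes printed are a subset of 393 chosen by rule: key members of 61 lists, all members of 55 gene pairs, the 20 largest rises and falls among genes that have a symbol, a mean log2 CPM of 4 or more and no overlap, up to 3 members per list with the largest change, 3 unnamed ORFs each way, and 5 strain differences each way. The lists, pairs and rules were chosen with earlier results of these data known. After list values were seen, RAD4 was moved to nucleotide excision repair, and the aliases YAP2 and DOA10 were dropped as duplicates. The rule for genes high in 1 library and the check of their neighbours were chosen after seeing the data. The lists are described by counts and medians, with no set test.

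Replicate numbers come from the labels, which do not say that equal numbers share a culture or day. Deviations of log2(CPM + 1) from the group mean correlated at 0.345, 0.133 and 0.12 across genes between treated and untreated libraries of the same number. Between unequal numbers the correlation was 0.113 for WT_MMS_2 with WT_3, 0.0997 for WT_MMS_3 with WT_2, and negative for the rest. A replicate block was fitted as an alternative, over the 12 libraries and over the wild type libraries alone. Other alternatives were DESeq2 1.42.0, limma-voom (limma 3.58.1), RLE and library-total scaling, other filters, the wild type libraries alone, and leaving out each wild type library in turn. The steps were tested on simulated data with known changes, in which few genes changed and about as many rose as fell. Most genes passed in the real data, so the scaling was not tested for such a case. No genome or promoter sequence was used here.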

Additional observations from a re-analysis of the deposited data

Results flagged for a closer look

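The response to MMS differed between wild type and HEL2 deletion cells for 2587 of 6463 genes (40.0%) by edgeR's test of the difference itself. Of these, 12 genes are listed here, with 3 libraries in each of the 4 groups. The list holds the 5 largest differences each way among genes that have a symbol and average at least 4 log2 CPM, and RNR3 and CWP1, which were added after their values were seen. The wild type response was above that of the deletion strain by 3.28 (log2) for TOS6, 3.08 for SCW10, 3.02 for TIR1, 2.99 for HXK1, 2.96 for INA1, 2.94 for CWP1 and 2.90 for RNR3. The difference was -4.15 for SNZ1, -3.86 for ARO5, -3.45 for CLD1, -2.77 for TKL2 and -2.5 for HBT1. All 12 passed in each of the 14 alternatives run for this contrast. ARO5 and CLD1, whose untreated wild type libraries scattered widely, were at -2.75 and -2.26 without WT_3. What sets these differences was not tested.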

How the results depend on the processing

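Of 393 genes examined, 341 kept their call and direction in each of the 16 settings that gave them a value, which was every setting for 353 genes. Over 6240 values, 88 calls were lost and 40 gained, and the cause was not tested. Scaling by library totals moved most. It gave 1334 genes lower, 1429 at least 2-fold higher, 69.3% of calls higher, a median over all genes of 0.33, and 748 strain differences with the wild type above. It turned the sign of DIF1 (0.20), RPO21 (0.24), GCN2 (0.050), CLN3 (0.056), TAL1 (0.25) and FKS1 (0.27). The median over all genes was -0.0019 with RLE scaling and -0.0011 in DESeq2, and 0.0018 to 0.023 when 1 wild type library was left out. URA3 ranged from -0.24, without WT_MMS_2, to 4.58 when 1 library was left out. Leaving out 1 library gave 4219 to 4485 genes called, against 4515. The replicate block gave 4392 genes called over 12 libraries and 4474 over the wild type libraries. Over 12 libraries it ended the calls of DAL5, GZF3, MCM5, YPR145C-A, TSA1 and URA3. Over the wild type libraries the calls of DAL5, GZF3, MCM5, YPR145C-A and ASH1 were lost and PDR3, ROX1 and MGT1 passed; of these, ASH1, PDR3 and ROX1 differed from the fit of the same libraries with no block. The wild type libraries alone gave 4143, and genes at a mean log2 CPM of at least 4 gave 3318. Under library-total scaling the list medians of DNA replication (0.25), hexose transport (0.29), mitochondrial ribosomal proteins (0.07), mating (0.12) and phosphate genes (0.20) turned positive. Depth limits genes of few counts, such as CYC7, at a mean of 0.52 CPM in untreated cells. A planned search of promoters for motifs, with its 2 alternatives, was not run, because no promoter sequence was used here.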

Other observations

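Of the few mitochondrially encoded genes that passed the filter after poly(A) selection, COX1, of cytochrome oxidase, fell by 2.96 ± 0.38 and OLI1, of ATP synthase, by 1.19 ± 0.21 (adjusted p = 1.26e-05 and 0.000183, edgeR). Nuclear MRPL51, of the mitochondrial ribosome, fell by 1.34 ± 0.22 (adjusted p = 0.000126). Counts for other classes of element are read against 35.6% higher and 34.2% lower over all genes. Of 49 transposable element genes 22 were lower and 7 higher. Of 351 dubious ORFs 81 were higher and 60 lower, a smaller share each way than over all genes. Of 8 pseudogenes 5 were higher and none lower. Copies of transposable elements share reads, and dubious ORFs overlap other genes, so both are uncertain.

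Of the 38 genes high in 1 library alone, the 10 high in WT_MMS_1 took 2.94% of its counts, the 9 high in WT_MMS_2 0.94% and the 4 high in WT_MMS_3 1.24%. The 4 high in WT_1 took 0.303% of its counts, the 5 high in WT_2 0.103% and the 6 high in WT_3 1.55%. YER188W alone had 1061468 counts in WT_MMS_1, and YJR015W had 665595 in WT_3. Of these genes 10 reached 500 CPM in their library. Of the 19 measured neighbours of those 10, none reached 2 times the level of the remaining replicates in that library. MCM5, SFA1, SNA4 and URA3 were high in WT_MMS_2, GCD14 and LCB3 in WT_MMS_3, GZF3 in WT_1, MMS2 in WT_2 and YPR145C-A in WT_3. The size of each of their fold changes therefore rests on 1 library. The cause was not tested.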
